A study of Mus musculus with 20 samples.

Results

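Gata4 was activated in mouse ES cells that lack the de novo DNA methyltransferases Dnmt3a and Dnmt3b and in wild-type cells, and the question addressed here is where the response to Gata4 differed between both genotypes. The quantity described for every gene is the DKO response (DKO PE minus DKO ES) minus the WT response (WT PE minus WT ES), on the log2 scale of the deposited array signal. A positive value means that the gene responded more positively in DKO cells. It was computed over all 18194 genes measured, from 8 of the 20 arrays of the series, with 2 arrays in each of the 4 groups.

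DKO PE cells were Dnmt3a-/- Dnmt3b-/- ES cells (J1 background, 129sv/Jae; clone 16G4.3) that had received 100 nM dexamethasone (Dex) for 4 days, and DKO ES cells were the same clone in ES maintenance medium. WT PE and WT ES cells were the corresponding cultures of clone J1G4.2, from the wild-type J1 line. Cells of all 4 groups carried Gata4GR, a fusion of Gata4 with the hormone-binding part of the human glucocorticoid receptor, expressed from the ubiquitous CAG promoter, and all were kept with LIF. Each genotype was thus 1 transgenic clone, so genotype and clone cannot be told apart. The arrays of a group came from independent experiments. RNA was labelled in 2 rounds of amplification and hybridised to Affymetrix MOE430 version 2 arrays.

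Primitive endoderm is the extraembryonic layer that forms beside the epiblast in the blastocyst, and Gata4 and Gata6 are transcription factors that can drive ES cells into this fate. ES cells are held in the pluripotent state by Pou5f1 (Oct4), Sox2 and Nanog, together with LIF, and FGF signalling through ERK favours the endoderm side. Dnmt3a and Dnmt3b place new methyl groups on cytosines in CpG dinucleotides, and promoters of many germ cell genes are known to be silenced by this mark in somatic cells.

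The labels were checked on the targeted genes. The brightest Dnmt3a probe set read 6.18 and 6.64 in DKO PE and 6.22 and 6.33 in DKO ES, against 8.30 and 8.58 in WT PE and 9.44 and 9.34 in WT ES (log2 signal). Dnmt3b read 6.64 and 6.85 in DKO PE and 8.97 and 8.88 in DKO ES, against 12.06 and 12.30 in WT PE and 13.06 and 12.63 in WT ES. Both genes were lower in every DKO array than in every WT array. The place of these probe sets relative to the deletions was not determined. Gata4 read 10.37 and 10.48 in DKO PE and 5.37 and 4.81 in DKO ES, against 10.25 and 10.76 in WT PE and 5.21 and 5.49 in WT ES, and its difference of response was 0.18 ± 0.28 (SE; adjusted p = 0.985). The second Gata4 probe set gave -0.45. Whether these probe sets read the Gata4GR transgene, the cells' own Gata4 or both was not determined. They therefore do not show that both clones had the same amount or activity of Gata4GR. Within each of these 4 groups the duplicate arrays correlated at 0.994 to 0.996 over all genes. Between 20 genes (WT PE) and 107 genes (WT ES) were at least 2-fold apart between them.

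The difference of response passed in 247 genes at a Benjamini-Hochberg adjusted p under 0.05 (limma) and a size of at least 2-fold: it was higher in DKO for 93 genes (0.511% of all genes tested) and lower for 154 (0.846%). The median over all genes was 0.00. By comparison, 1480 genes (8.13%) rose and 1488 (8.18%) fell between DKO ES and DKO PE, and 1397 (7.68%) rose and 1191 (6.55%) fell between WT ES and WT PE. In every one of the 93 and 154 genes every pairing of single PE and ES arrays gave DKO responses that did not overlap the WT ones. The genes were called on these same arrays, so this separation adds no separate evidence. It also held for genes that did not pass, such as Eras and Cdh1, and its share over all genes was not computed. In these bulk samples fewer cells of a type and less RNA per cell cannot be told apart.

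**Figure D1:**
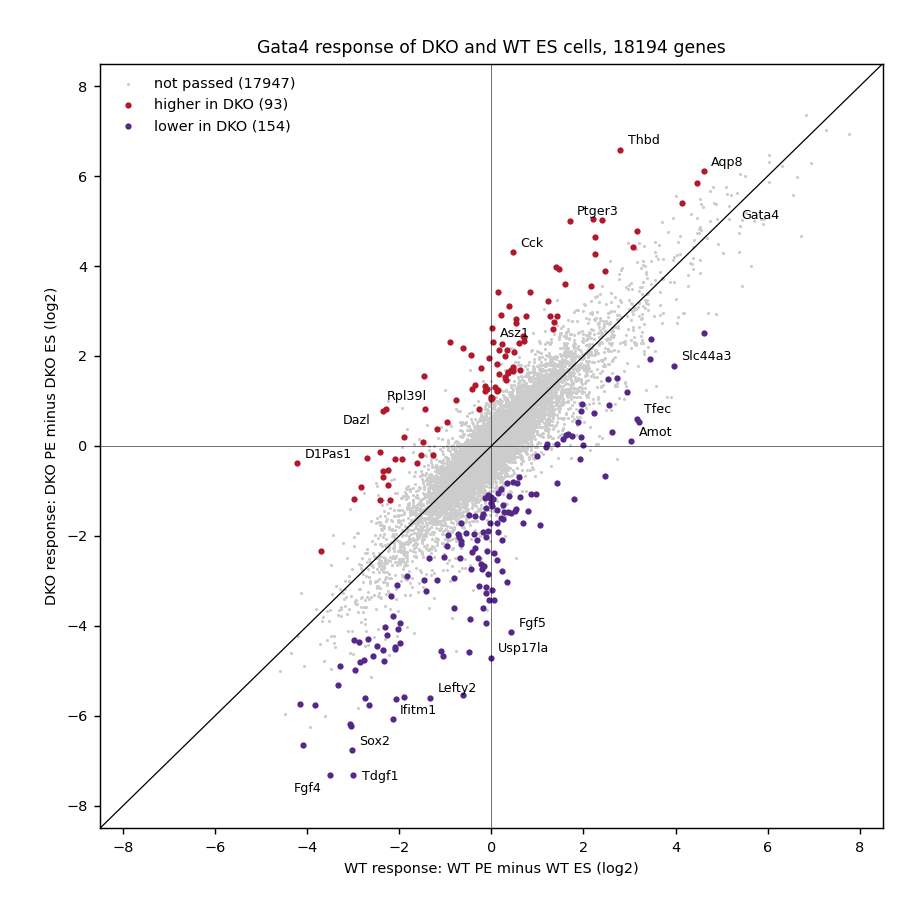
Response to Gata4 in DKO (vertical axis, DKO PE minus DKO ES) against WT (horizontal axis, WT PE minus WT ES), each dot 1 gene, both on the log2 scale, with the line of equal responses. Red dots are the 93 genes with a higher response in DKO and violet dots the 154 with a lower one; Gata4 lies near the line, Thbd and Cck above it, and Fgf4, Tdgf1 and Sox2 below it at the lower left.

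The 93 higher genes fell into 3 main patterns. In 46 the gene rose in DKO and did not pass in WT, in 21 it rose in both, and in 19 it fell in WT and did not pass in DKO. Another 4 fell in both, 1 rose in DKO and fell in WT, and 2 passed in neither response. Of the 93, 75 were higher in DKO PE than in WT PE, against 206 of all genes (1.13%), and 9 were higher and 10 lower in DKO ES than in WT ES, where 203 (1.12%) and 49 (0.269%) of all genes were. Among the 154 lower genes, 75 fell in DKO and did not pass in WT, 43 fell in both, 21 rose in WT and did not pass in DKO, 7 rose in both, 2 fell in DKO and rose in WT, and 6 passed in neither. Of these 154, 57 were lower and 1 higher in DKO PE than in WT PE (150 of all genes, or 0.824%, were lower), and 71 were higher and 1 lower in DKO ES than in WT ES. These comparisons use the same arrays as the difference itself, so the counts place the genes and add no separate evidence.

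The largest higher difference was that of Cck, followed by D1Pas1, which is described with the germ cell genes, and Thbd. Cck, which encodes the peptide hormone cholecystokinin, read 8.33 and 9.08 in DKO PE and 4.45 and 4.35 in DKO ES, against 4.99 and 4.55 in WT PE and 4.11 and 4.50 in WT ES. Only the DKO PE arrays stood apart, and the signal rose 19.8-fold in DKO and changed 1.38-fold in WT, a difference of 3.84 ± 0.32 (adjusted p = 3.17e-05). Thbd, the thrombin receptor thrombomodulin of endothelium and parietal endoderm, read 11.51 and 11.31 in DKO PE and 4.94 and 4.70 in DKO ES, against 7.57 and 7.15 in WT PE and 4.70 and 4.41 in WT ES. It rose in both genotypes, 96.4-fold in DKO and 6.98-fold in WT, and the difference was 3.79 ± 0.59 (adjusted p = 0.00321). The prostaglandin E2 receptor gene Ptger3 read 9.30 and 9.18 in DKO PE and 4.55 and 3.91 in DKO ES, against 5.97 and 5.14 in WT PE and 3.81 and 3.89 in WT ES (difference 3.31 ± 0.37, adjusted p = 0.000381). A dimmer second Ptger3 probe set gave 0.14.

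Sema6d, a transmembrane semaphorin that guides axons and cell migration, read 10.45 and 11.10 in DKO PE and 5.85 and 5.63 in DKO ES, against 7.68 and 7.06 in WT PE and 5.15 and 5.19 in WT ES. The arrays of both PE groups lay above both ES groups, and the DKO rise of 32.9-fold compared with 4.60-fold in WT (difference 2.84 ± 0.39, adjusted p = 0.00114). Its 3 other probe sets gave 0.36 to 0.40. Lgals9 (galectin-9, a secreted sugar-binding protein) read 9.10 and 9.30 in DKO PE and 6.14 and 6.06 in DKO ES, against 6.39 and 6.31 in WT PE and 6.003 and 5.92 in WT ES. Its difference was 2.71 ± 0.28 (adjusted p = 0.000135), and WT PE lay close to both ES groups. Car8, a relative of the carbonic anhydrases that lacks their activity, rose 32.3-fold in DKO and 5.27-fold in WT (difference 2.62 ± 0.34, adjusted p = 0.000794), and its dimmer probe sets gave 0.61 and 0.62. Of the other genes with the largest differences, Mgst2 (a microsomal glutathione transferase) rose in both, by 15.7-fold in DKO and 2.64-fold in WT. Tcim, Wfdc15a, Cmbl and Trpv1 (the heat and capsaicin receptor) rose in DKO and did not pass in WT, with differences of 3.21, 2.71, 2.63 and 2.60. Cpe, the carboxypeptidase that trims prohormones, rose to 10.84 and 10.77 in DKO PE, against 9.18 and 9.33 in DKO ES, and fell to 8.09 and 7.22 in WT PE, against 9.09 and 9.15 in WT ES. The Cpe difference of 3.01 ± 0.67 (adjusted p = 0.0381) no longer passed when any 1 of the 8 arrays was left out. A dimmer second Cpe probe set gave -0.02, with a WT response of 0.94.

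None of the 17 transcription factors of primitive endoderm measured passed in either direction. Over all genes only 0.511% passed as higher and 0.846% as lower, so no call among 17 says little about them. Their median difference was -0.20, with 11 below 0 and 6 above. The largest were those of Foxa1 (-1.48 ± 0.38, adjusted p = 0.0858), Foxq1 (-0.965 ± 0.58, 0.778), Zfpm1 (-0.90 ± 0.37, 0.449) and Hhex (-0.83 ± 0.30, 0.342). Foxa1 fell in DKO and did not pass in WT, Hhex rose in WT and did not pass in DKO, and Foxq1 and Zfpm1 rose in both. Sox17 read 13.04 and 13.03 in DKO PE and 6.31 and 5.87 in DKO ES, against 12.91 and 12.80 in WT PE and 5.56 and 4.61 in WT ES. It rose in both genotypes, and the difference of -0.82 ± 1.03 had an adjusted p of 0.973. Gata6 differed by 0.50 ± 0.39 (adjusted p = 0.904), Sox7 by 0.44 ± 0.33 (0.889) and Foxa2 by 0.50 ± 0.63 (0.973), and each rose in both genotypes. A value that did not pass does not show that both responses were equal. Sox17, Gata6, Sox7 and Foxa2 were named after their values were seen.

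Among 18 receptors, adaptors and other proteins of primitive endoderm, 16 rose in DKO and 16 in WT, and 2 had a higher response in DKO. Of all genes, 8.13% rose in DKO, 7.68% rose in WT and 0.511% had a higher response in DKO. Aqp8, a water channel, read 11.69 and 12.08 in DKO PE and 5.75 and 5.78 in DKO ES, against 10.45 and 9.86 in WT PE and 5.71 and 5.36 in WT ES (difference 1.49 ± 0.31, adjusted p = 0.0227). S100g, a calcium-binding protein of absorptive epithelia, read 7.78 and 7.70 in DKO PE and 3.72 and 3.98 in DKO ES, against 6.37 and 6.83 in WT PE and 4.24 and 4.00 in WT ES (difference 1.41 ± 0.29, adjusted p = 0.0205). Both calls were lost in 5 of the 8 leave-one-out fits. Dab2, the endocytic adaptor used as a primitive endoderm marker, read 13.35 and 13.58 in DKO PE, against 13.37 and 13.57 in WT PE, and its difference of -0.88 ± 0.77 did not pass. In the list of parietal endoderm and basement membrane genes, Thbd was the only one of 17 that passed, while 14 rose in DKO and 15 in WT. The laminin chain gene Lama1 differed by 0.29 ± 0.54. None of 21 visceral endoderm secreted proteins passed when each was read from its brightest probe set (median 0.00), and 1 was higher and 1 lower when the probe sets of a gene were averaged. Afp (alpha-fetoprotein) had an adjusted p of 0.0284 but a difference of 0.89 at its brightest probe set, under 2-fold. Of its 4 other probe sets, one read 7.75 and 7.81 in DKO PE and 3.81 and 4.27 in DKO ES, against 3.60 and 3.39 in WT PE and 3.08 and 3.11 in WT ES, a difference of 3.34 in which only DKO PE stood apart. The others gave 2.44, 0.15 and -0.14. Apoe differed by -1.58 ± 0.58 (adjusted p = 0.342). The collagen VI genes Col6a1 and Col6a2, listed with mesenchymal matrix genes, rose in DKO and did not pass in WT, with differences of 1.60 ± 0.26 (adjusted p = 0.00507) and 2.01 ± 0.24 (adjusted p = 0.000548).

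**Figure D2:**
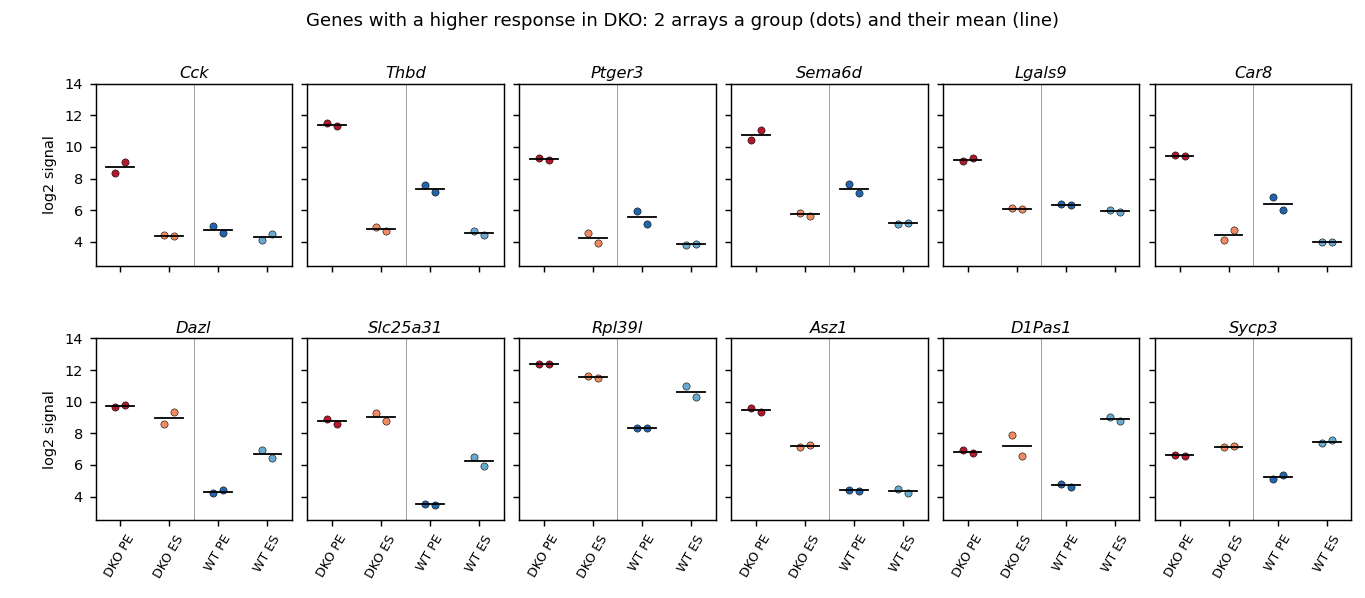
Log2 signal (vertical axis) of 12 genes with a higher response in DKO, in each array of DKO PE, DKO ES, WT PE and WT ES (dots), with the mean of the 2 arrays (line). In the upper row DKO PE is the highest group for every gene; in the lower row WT PE lies below the DKO PE arrays for every gene, and below WT ES for all but Asz1.

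Several germ cell genes had a higher response in DKO. At their brightest probe sets, 5 of the 7 described here fell in WT and did not pass in DKO. Promoter sequences of 4 of them are given to show their CpG dinucleotides, the sites of the methylation that Dnmt3a and Dnmt3b write. The windows span 250 bases before to 50 after the start of the gene in RefSeq (build GRCm38.p6), are written 5′ to 3′ in the direction of the gene, and have CG in capitals. They are Dazl at chr17:50293571-50293870 (minus strand), Slc25a31 at chr3:40708621-40708920 (plus strand), Rpl39l at chr16:10169978-10170277 (plus strand) and Sycp3 at chr10:88459337-88459636 (plus strand).
Dazl: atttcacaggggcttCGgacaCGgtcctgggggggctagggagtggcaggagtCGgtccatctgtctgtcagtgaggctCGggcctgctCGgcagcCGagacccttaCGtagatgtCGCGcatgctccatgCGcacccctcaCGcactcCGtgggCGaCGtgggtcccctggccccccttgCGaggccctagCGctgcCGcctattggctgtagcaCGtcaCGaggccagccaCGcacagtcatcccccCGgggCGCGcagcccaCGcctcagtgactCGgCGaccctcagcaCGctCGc
Slc25a31: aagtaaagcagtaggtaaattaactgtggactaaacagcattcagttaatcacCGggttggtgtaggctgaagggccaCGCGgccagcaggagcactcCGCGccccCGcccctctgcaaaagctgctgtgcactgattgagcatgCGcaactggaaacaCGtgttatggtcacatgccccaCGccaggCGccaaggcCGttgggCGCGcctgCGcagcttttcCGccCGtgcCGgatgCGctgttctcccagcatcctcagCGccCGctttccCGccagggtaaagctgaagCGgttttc
Rpl39l: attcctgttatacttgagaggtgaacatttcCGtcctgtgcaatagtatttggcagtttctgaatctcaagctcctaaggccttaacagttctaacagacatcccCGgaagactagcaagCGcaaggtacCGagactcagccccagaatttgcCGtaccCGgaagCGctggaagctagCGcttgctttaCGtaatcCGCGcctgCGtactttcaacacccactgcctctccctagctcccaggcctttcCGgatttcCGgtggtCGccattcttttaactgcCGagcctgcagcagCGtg
Sycp3: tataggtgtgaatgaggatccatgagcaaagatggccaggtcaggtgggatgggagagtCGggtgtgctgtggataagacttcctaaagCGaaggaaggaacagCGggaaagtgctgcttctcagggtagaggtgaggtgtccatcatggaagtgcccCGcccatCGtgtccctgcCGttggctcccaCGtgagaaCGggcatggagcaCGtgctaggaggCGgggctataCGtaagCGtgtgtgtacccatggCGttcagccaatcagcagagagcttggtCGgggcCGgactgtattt
These windows held 28 (Dazl), 22 (Slc25a31), 17 (Rpl39l) and 15 (Sycp3) CpG dinucleotides. The median over 14453 measured genes with such a window was 17, so Dazl and Slc25a31 lay above it, Rpl39l at it and Sycp3 below it. Methylation itself was not measured in these data.

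Dazl, an RNA-binding protein needed for germ cell development, read 9.69 and 9.81 in DKO PE and 8.60 and 9.36 in DKO ES, against 4.23 and 4.41 in WT PE and 6.91 and 6.44 in WT ES. It was already higher in DKO ES than in WT ES, and its 1.70-fold change in DKO after Dex did not pass. In WT it fell to 19.5% of the ES signal, which gave a difference of 3.12 ± 0.64 (adjusted p = 0.0227). The second Dazl probe set gave 1.80 with another make-up. It rose by 1.49 (log2) in DKO and changed by only -0.31 in WT, so the fall in WT rests on the brightest probe set. Slc25a31, the testis ADP/ATP carrier, read 8.91 and 8.61 in DKO PE and 9.29 and 8.77 in DKO ES, against 3.55 and 3.48 in WT PE and 6.53 and 5.92 in WT ES (difference 2.44 ± 0.48, adjusted p = 0.017). Rpl39l, a testis paralog of a ribosomal protein gene, read 12.38 and 12.36 in DKO PE and 11.59 and 11.51 in DKO ES, against 8.35 and 8.33 in WT PE and 10.97 and 10.27 in WT ES (difference 3.11 ± 0.37, adjusted p = 0.000516). WT PE was the lowest group for all 3, and the DKO arrays did not overlap the WT arrays in PE or in ES cells. Sycp3, a component of the synaptonemal complex of meiotic chromosomes, read 6.64 and 6.57 in DKO PE and 7.12 and 7.18 in DKO ES, against 5.09 and 5.35 in WT PE and 7.37 and 7.59 in WT ES. WT PE lay below all other arrays (difference 1.71 ± 0.39, adjusted p = 0.0427), and the call was lost when any 1 of the 8 arrays was left out; Dazl was lost in 7 of these fits and Slc25a31 in 5.

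D1Pas1, a testis helicase of the Ddx3 family, read 6.95 and 6.72 in DKO PE and 7.91 and 6.53 in DKO ES, against 4.77 and 4.63 in WT PE and 9.05 and 8.78 in WT ES. It was lower in DKO than in WT before Dex and higher after it, with 5.39% of the ES signal left in WT and 76.4% in DKO (difference 3.83 ± 0.46, adjusted p = 0.000518). The second D1Pas1 probe set gave 1.79, and near-identical family members could contribute to both. Asz1, which acts in the piRNA pathway of the germ line, read 9.62 and 9.36 in DKO PE and 7.11 and 7.25 in DKO ES, against 4.42 and 4.37 in WT PE and 4.48 and 4.25 in WT ES. It rose in DKO and did not pass in WT, where all 4 arrays lay between 4.25 and 4.48 (difference 2.28 ± 0.40, adjusted p = 0.00733), and its second probe set gave 0.54. Stra8, which starts meiosis on retinoic acid, differed by 1.72 ± 0.31 (adjusted p = 0.0092), a call lost in 2 of the 8 leave-one-out fits. It read 8.25 and 8.07 in DKO PE and 6.70 and 6.91 in DKO ES, against 5.98 and 6.27 in WT PE and 6.49 and 6.49 in WT ES.

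Not all germ cell genes followed this pattern. Of 37 measured on the germline and meiosis list, 5 had a higher and 2 a lower response in DKO and 30 did not pass, with a median of 0.10, against 0.00 over all genes. In the response itself 16 of the 37 fell in DKO and 16 in WT, and 2 rose in DKO and 0 in WT. The shares over all genes were 0.511% with a higher and 0.846% with a lower response in DKO. Of all genes, 8.18% fell and 8.13% rose in DKO, and 6.55% fell and 7.68% rose in WT. Tex19.1, linked to transposon control in germ cells, differed by 1.68 ± 0.61 (adjusted p = 0.326). The 2 lower genes encode proteins of meiotic chromosomes. Smc1b read 5.25 and 5.42 in DKO PE and 6.98 and 8.22 in DKO ES, against 5.02 and 5.44 in WT PE and 5.36 and 5.80 in WT ES (difference -1.92 ± 0.43, adjusted p = 0.0417). Sycp1 differed by -1.05 ± 0.24 (adjusted p = 0.0427), and in both the DKO ES arrays were the highest. Each of these calls was lost in 7 of the 8 leave-one-out fits. On the list of Rhox genes, testis paralogs and X-linked germ cell genes, Rpl39l passed as higher and Pdha2, a testis pyruvate dehydrogenase subunit, as lower (-1.59 ± 0.29, adjusted p = 0.011, lost in 3 of the 8 leave-one-out fits) among 14 measured.

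The most frequent pattern among the lower responses was a fall in DKO with no call in WT (75 of 154 genes), and 56 of these 75 were higher in DKO ES than in WT ES. Genes of the cleavage-stage embryo belonged to it. Of 11 measured, 9 had a lower response in DKO and none a higher one, with a list median of -2.32. All 9 were higher in DKO ES than in WT ES and fell in DKO, and none passed in the WT response. Over all genes, 0.846% had a lower response. The list was chosen with earlier results of these data known, and a high DKO ES signal by itself lowers the difference. The counts on this list therefore place the genes and add no separate evidence. Usp17la, a deubiquitinase gene of a multicopy family, read 5.28 and 5.05 in DKO PE and 10.48 and 9.27 in DKO ES, against 5.85 and 5.68 in WT PE and 6.56 and 4.99 in WT ES (difference -4.70 ± 0.59, adjusted p = 0.000644). Zfp352, a zinc finger gene switched on at the first cleavages, read 6.49 and 6.34 in DKO PE and 8.85 and 8.16 in DKO ES, against 6.36 and 6.40 in WT PE and 6.20 and 6.11 in WT ES (difference -2.32 ± 0.28, adjusted p = 0.000516). Only the DKO ES arrays stood above the other 3 groups. Pramel6, which belongs to a preimplantation gene family, read 3.76 and 3.65 in DKO PE and 6.38 and 6.27 in DKO ES, against 3.73 and 4.02 in WT PE and 4.22 and 3.98 in WT ES (difference -2.40 ± 0.21, adjusted p = 3.17e-05). A second probe set gave -2.81 for Zfp352 and -0.04 for Pramel6, where it lay near the low end of the scale.

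The remaining members were AF067061 (-4.10), Ubtfl1 (-3.83), Arg2 (mitochondrial arginase, -3.47), Sp110 (-1.92), Pramel7 (-1.86) and Tcstv3 (-1.35). The other probe sets gave -3.26 for Arg2, -0.19 for Pramel7, and -0.15 and -0.25 for Sp110. Pramel18, in the same family as Pramel6 and among the 15 largest lower differences, gave -3.41 ± 0.41. The 2 DKO ES arrays were not alike in these genes: array 1 was above array 2 in 8 of the 9, and the gap was between -0.33 and 2.04. The difference for Arg2 was -3.47 ± 0.62, with DKO ES at 8.42 and 6.38, and it did not pass without either of 2 of the arrays, while Tcstv3 did not pass without 7 of the 8. Tcstv1 (-0.49) and Eif1a (-0.40) did not pass. The promoters of 2 members are shown for comparison with those of the germ cell genes: Pramel6 at chr2:87506315-87506614 (plus strand) and Zfp352 at chr4:90218570-90218869 (plus strand).
Pramel6: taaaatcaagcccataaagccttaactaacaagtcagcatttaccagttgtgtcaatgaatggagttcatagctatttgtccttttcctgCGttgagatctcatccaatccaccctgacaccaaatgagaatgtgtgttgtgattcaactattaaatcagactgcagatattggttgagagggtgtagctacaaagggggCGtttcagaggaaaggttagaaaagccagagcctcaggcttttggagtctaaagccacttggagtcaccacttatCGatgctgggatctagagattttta
Zfp352: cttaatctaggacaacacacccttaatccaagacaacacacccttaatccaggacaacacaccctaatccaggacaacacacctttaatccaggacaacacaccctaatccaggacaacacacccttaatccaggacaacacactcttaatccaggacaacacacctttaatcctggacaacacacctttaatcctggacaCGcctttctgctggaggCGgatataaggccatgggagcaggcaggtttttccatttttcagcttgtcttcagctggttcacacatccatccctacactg
They held 3 (Pramel6) and 2 (Zfp352) CpG dinucleotides in 300 bases, and that of Usp17la held 1. Other windows counted were those of Fgf4 (28), Sox2 (27), Ptger3 (27), Cck (10), Tdgf1 (7) and Aqp8 (6). A high number was thus not particular to germ cell genes.

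The pluripotency network with its Nodal and FGF arms held genes that fell in both genotypes and further in DKO. Of 25 pluripotency factors 19 fell in DKO and 19 in WT, and 5 had a lower response in DKO and none a higher one (median difference -0.77). The shares over all genes were 8.18% that fell in DKO, 6.55% that fell in WT and 0.846% with a lower response. The list was chosen with earlier results of these data known. Pou5f1 read 7.10 and 6.94 in DKO PE and 11.92 and 11.74 in DKO ES, against 9.34 and 9.45 in WT PE and 12.21 and 12.29 in WT ES. The ES groups lay close together and DKO PE lay below WT PE, with 3.56% of the ES signal left in DKO and 13.8% in WT (difference -1.96 ± 0.33, adjusted p = 0.00561). Sox2 read 5.82 and 5.07 in DKO PE and 12.10 and 12.32 in DKO ES, against 9.67 and 9.66 in WT PE and 12.57 and 12.83 in WT ES, so that 0.920% was left in DKO and 12.2% in WT (difference -3.73 ± 0.85, adjusted p = 0.043). Nanog read 4.78 and 4.87 in DKO PE and 11.33 and 11.62 in DKO ES, against 7.53 and 6.75 in WT PE and 10.81 and 11.66 in WT ES (difference -2.56 ± 0.58, adjusted p = 0.0417). Sox2 no longer passed when any 1 of the 8 arrays was left out, with differences between -4.11 and -3.36, and Nanog no longer passed without any of 7 of them.

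The other members that passed were Gdf3, a TGF-beta family ligand (-1.98 ± 0.27, adjusted p = 0.0011, with -0.81 at its second probe set), and Nr0b1, a nuclear receptor corepressor (-1.59 ± 0.33, adjusted p = 0.027), whose call was lost in 7 of the 8 leave-one-out fits. Eras (-2.40 ± 0.77, adjusted p = 0.225), Dppa2 (-1.70 ± 0.88, 0.664) and Dppa3 (-1.24) did not pass, nor did Klf5, at 1.10 ± 0.40 (adjusted p = 0.342). In DKO PE the signals of Nanog and Nr0b1 lay at 4.20 to 4.87, near the low end of a scale that runs from 2.68 to 15.3. No detection calls were used, so the shares left in DKO PE are shares of array signal.

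In the Nodal and activin pathway 4 of 21 genes had a lower response in DKO, against 0.846% of all genes, and none a higher one (median -0.29). Tdgf1 (Cripto), the co-receptor for Nodal, read 6.12 and 5.37 in DKO PE and 13.23 and 12.90 in DKO ES, against 9.91 and 10.28 in WT PE and 12.97 and 13.23 in WT ES, which left 0.626% of the ES signal in DKO and 12.5% in WT (difference -4.32 ± 0.53, adjusted p = 0.000606). Lefty2, a secreted Nodal antagonist and Nodal target, read 5.49 and 5.05 in DKO PE and 10.38 and 11.35 in DKO ES, against 8.55 and 8.51 in WT PE and 9.19 and 10.52 in WT ES (difference -4.27 ± 0.56, adjusted p = 0.000841). The DKO PE arrays lay below the WT PE arrays in both genes, and the ES groups overlapped for Tdgf1 and for Lefty2. Nodal itself read 7.15 and 6.78 in DKO PE and 11.99 and 11.89 in DKO ES, against 8.90 and 8.90 in WT PE and 11.95 and 11.76 in WT ES (difference -2.02 ± 0.45, adjusted p = 0.0374), and it did not pass without any 1 of the 8 arrays. The second Nodal probe set gave -0.47. The remaining gene that passed was Gdf3, which both lists hold, and Lefty1 differed by -1.42 ± 0.47 (adjusted p = 0.243).

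In the FGF and ERK pathway 4 of 24 genes had a lower response in DKO, against 0.846% of all genes, and none a higher one (median -0.33). Fgf4, the FGF ligand that ES cells secrete, read 4.99 and 4.59 in DKO PE and 12.20 and 12.04 in DKO ES, against 8.64 and 8.28 in WT PE and 11.91 and 12.01 in WT ES. With 0.623% of the ES signal left in DKO and 8.83% in WT, the difference was -3.83 ± 0.57 (adjusted p = 0.00232). One further Fgf4 probe set gave -3.40, and the 2 others, which moved less in both genotypes, gave 0.20 and 0.35. Etv5, an ETS factor that FGF signalling induces, read 4.99 and 4.79 in DKO PE and 10.99 and 11.25 in DKO ES, against 7.96 and 8.02 in WT PE and 11.02 and 11.07 in WT ES (difference -3.18 ± 0.48, adjusted p = 0.0026); its 2 other probe sets gave -0.52 and -1.15. Fgf5, the ligand of primed epiblast, followed another course. It read 4.98 and 4.56 in DKO PE and 8.78 and 9.06 in DKO ES, against 6.75 and 6.74 in WT PE and 7.12 and 5.50 in WT ES, so it was higher in DKO before Dex and lower after it (difference -4.57 ± 0.71, adjusted p = 0.00312). A dimmer Fgf5 probe set gave -0.20. Fgf1 (-2.66 ± 0.49) was high only in DKO ES, at 7.77 and 6.11, and all other arrays lay between 4.36 and 4.62. Its 2 other probe sets gave -0.02 and 0.05, and its call was lost in 3 of the 8 leave-one-out fits. The feedback gene Dusp6 differed by -0.32 and Spry4 by -0.04.

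Over the 3 lists together, 37 genes fell in both genotypes, and 31 of them had a smaller share of their ES signal left in DKO PE than in WT PE. The median share was 10.3% in DKO and 19.9% in WT. These shares were not computed over all genes that fell in both genotypes. Whether a smaller share in DKO was particular to these lists was therefore not tested. Over all genes, 1488 fell in DKO and 1191 in WT. These genes are not independent of each other. Esrrb and Tfcp2l1, 2 pluripotency factors, had the larger share in DKO (28.1% against 19.9% in WT for Esrrb), and their differences of 0.50 and 0.51 did not pass. Otx2, a homeobox factor of primed epiblast and neuroectoderm, read 4.56 and 4.51 in DKO PE and 10.20 and 10.38 in DKO ES, against 7.24 and 7.44 in WT PE and 10.23 and 9.76 in WT ES (difference -3.10 ± 0.57, adjusted p = 0.0117).

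**Figure D3:**
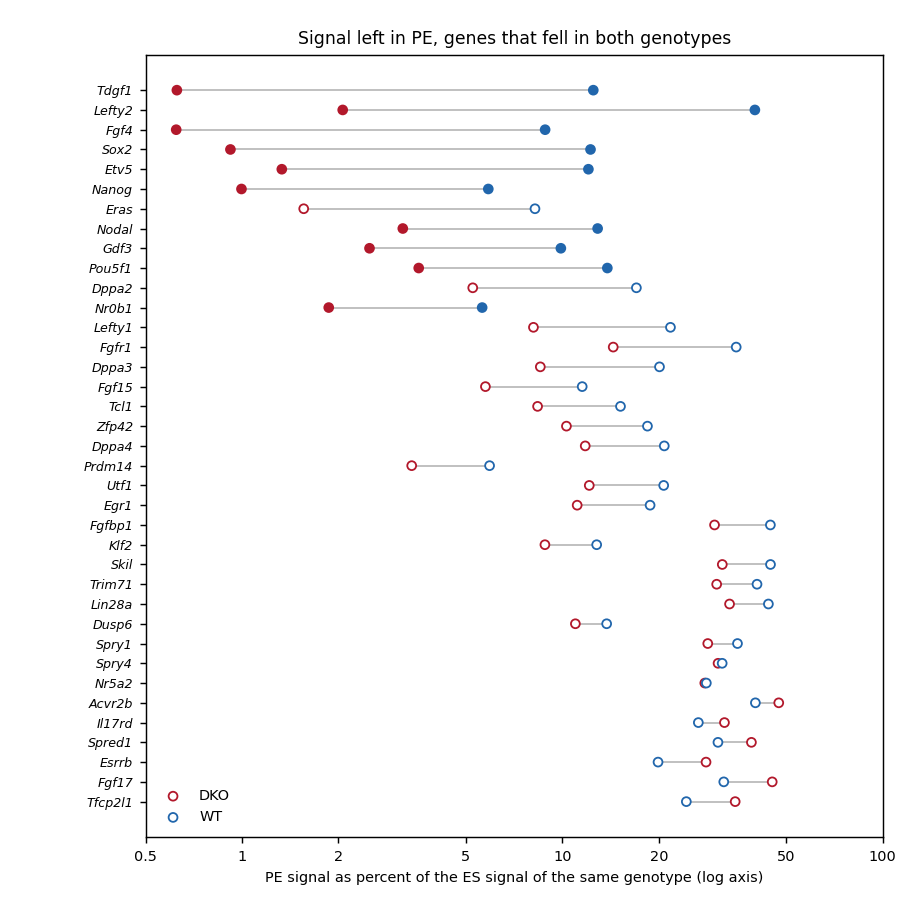
Signal left in PE as percent of the ES signal of the same genotype (horizontal log axis) for the 37 pluripotency, Nodal and FGF genes that fell in both genotypes, DKO in red and WT in blue, ordered by the difference of response. Filled circles mark the genes whose difference passed; DKO lies left of WT in 31 of the 37, from 0.626% against 12.5% for Tdgf1 in the top row.

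In 23 of the 154 genes the signal rose in WT and did not pass, or fell, in DKO. Bmp6, a BMP ligand, read 6.71 and 6.56 in DKO PE and 6.47 and 6.19 in DKO ES, against 8.36 and 8.26 in WT PE and 5.92 and 5.46 in WT ES (difference -2.31 ± 0.48, adjusted p = 0.0259), a call lost in 7 of the 8 leave-one-out fits. Cpm, carboxypeptidase M of the cell surface, rose 9.24-fold in WT and differed by -2.67 ± 0.52 (adjusted p = 0.0161). Dsp, which encodes the desmosome protein desmoplakin, fell to 9.65 and 8.90 in DKO PE, against 10.27 and 10.63 in DKO ES, and rose to 11.63 and 11.12 in WT PE, against 9.65 and 9.49 in WT ES (difference -2.98 ± 0.42, adjusted p = 0.00146). Its other probe sets gave -3.07 and -0.46. WT PE was the highest group for all 3 genes.

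A few more were named after their values were seen, as examples of large differences with a WT rise. Amot (angiomotin, a regulator of Hippo signalling) read 10.90 and 10.85 in DKO PE and 10.86 and 10.68 in DKO ES, against 12.06 and 12.13 in WT PE and 9.44 and 8.67 in WT ES. Its WT response of 8.21-fold spanned the DKO level, which changed 1.08-fold (difference -2.93 ± 0.29, adjusted p = 9.02e-05). Tfec, a transcription factor of the Mitf family, rose 8.92-fold in WT and changed 1.52-fold in DKO (difference -2.55 ± 0.40, adjusted p = 0.00332). Slc44a3, a choline transporter-like protein, rose in both, 3.44-fold in DKO and 15.5-fold in WT (difference -2.17 ± 0.25, adjusted p = 0.000381).

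**Figure D4:**
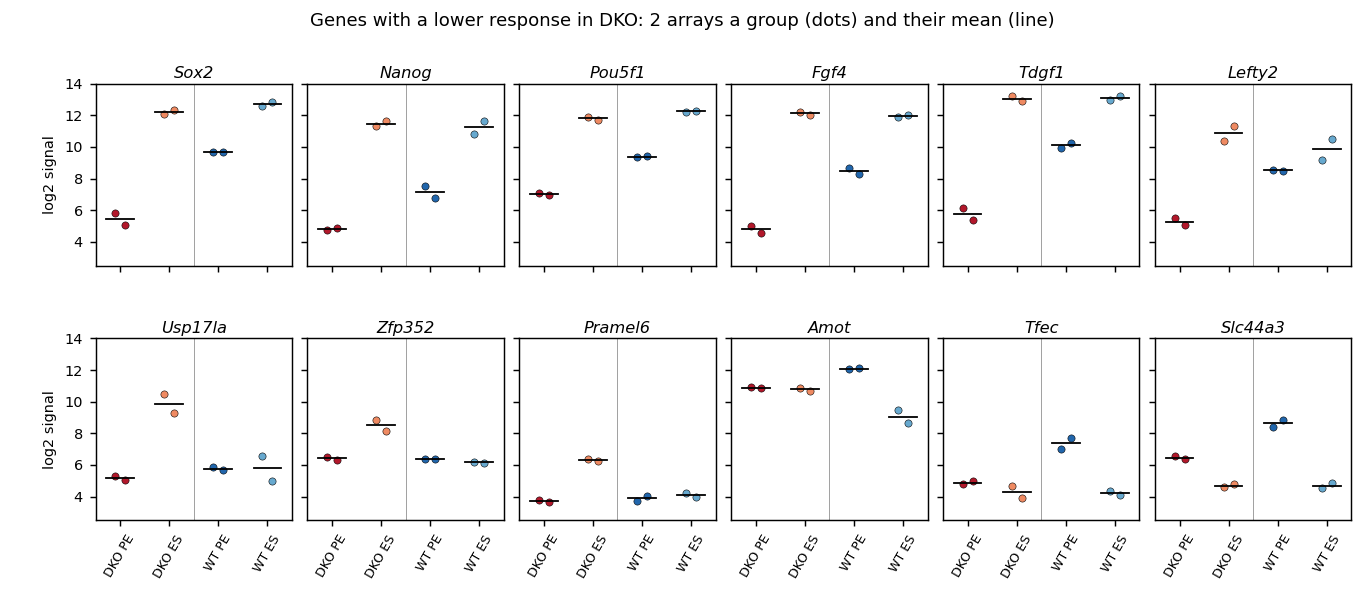
Log2 signal (vertical axis) of 12 genes with a lower response in DKO, in each array of DKO PE, DKO ES, WT PE and WT ES (dots), with the mean of the 2 arrays (line). The first 6 genes fall in both genotypes and further in DKO, Usp17la, Zfp352 and Pramel6 are high in DKO ES only, and WT PE is the highest group for Amot, Tfec and Slc44a3.

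Further lower responses came from interferon-inducible genes. Ifitm1, a membrane protein that restricts virus entry and is abundant in ES cells, read 6.05 and 6.15 in DKO PE and 12.20 and 12.17 in DKO ES, against 9.76 and 9.73 in WT PE and 11.74 and 12.03 in WT ES. With 1.48% of the ES signal left in DKO and 22.7% in WT, the difference of -3.94 ± 0.24 had an adjusted p of 1.75e-06. Ifitm2 differed by -1.72 ± 0.32 (adjusted p = 0.0117), a call lost in 2 of the 8 leave-one-out fits. Ly6e, a GPI-anchored surface protein, read 5.18 and 5.09 in DKO PE and 9.51 and 9.89 in DKO ES, against 7.39 and 8.34 in WT PE and 9.12 and 8.77 in WT ES (difference -3.48 ± 0.54, adjusted p = 0.00312). Its other probe set, which moved little in either genotype, gave 0.25. Of 27 MHC class I and interferon genes, these 3 had a lower response, against 0.846% of all genes. None had a higher one, and the list median was -0.81. Gbp2 (-3.80 ± 0.96, adjusted p = 0.0802) and Gbp3 (-3.57 ± 1.16, 0.232), guanylate-binding GTPases, and Tapbp and Psmb8 of antigen presentation (-1.79 and -2.18) did not pass. Gbp2b, outside the list, passed at -3.63 ± 0.75 (adjusted p = 0.0233) and was lost in 7 of the 8 leave-one-out fits.

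Among the other large lower differences, Mtm1, a phosphatase of phosphoinositides, read 8.32 and 7.80 in DKO PE and 13.68 and 13.60 in DKO ES, against 11.59 and 12.29 in WT PE and 13.75 and 13.93 in WT ES (difference -3.69 ± 0.47, adjusted p = 0.000731). Its 2 other probe sets gave -3.55 and -0.18. Igfbp3, which binds insulin-like growth factors, differed by -3.55 ± 0.76 (adjusted p = 0.0284), and Efemp1, a fibulin of the extracellular matrix, by -3.37 ± 0.75 (adjusted p = 0.0372). With single arrays left out, the call was lost in all 8 fits for Igfbp3 and in 7 for Efemp1. Id3, an inhibitor of helix-loop-helix factors and a BMP target, read 6.62 and 6.18 in DKO PE and 9.98 and 9.21 in DKO ES, against 8.24 and 8.71 in WT PE and 8.69 and 8.23 in WT ES, so that DKO fell to 10.9% of the ES signal and WT changed 1.01-fold (difference -3.22 ± 0.48, adjusted p = 0.00241). Id1 differed by -2.28 ± 0.65 (adjusted p = 0.143). Id3 and Bmp6 were the only 2 of 25 BMP pathway and Id genes that passed (median -0.30), both as lower, against 0.846% of all genes.

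Imprinted genes were split. Mirg, a maternally expressed RNA of the Dlk1-Meg3 region, read 5.96 and 6.20 in DKO PE and 5.47 and 5.94 in DKO ES, against 6.21 and 6.14 in WT PE and 7.63 and 7.08 in WT ES, and WT ES alone stood apart (difference 1.56 ± 0.34, adjusted p = 0.0325). Meg3 and Rian, from the same region, differed by 3.23 ± 0.85 (adjusted p = 0.0984) and 2.77 ± 0.67 (0.0601) and did not pass. Mest, a paternally expressed gene, read 6.61 and 6.52 in DKO PE and 10.96 and 11.10 in DKO ES, against 8.25 and 8.37 in WT PE and 10.45 and 10.38 in WT ES (difference -2.36 ± 0.51, adjusted p = 0.0326). Slc38a4, an amino acid transporter, differed by -1.22 ± 0.28 (adjusted p = 0.0455), and Igf2 by -3.04 ± 0.84 (adjusted p = 0.121). In all, 1 of 40 imprinted genes was higher, 2 were lower and the median was -0.12, where 0.511% of all genes were higher and 0.846% lower. Of these calls Mirg was lost in 6, and Mest and Slc38a4 in all, of the 8 leave-one-out fits.

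Of 31 genes for epithelial junctions, keratins and splicing, Dsp was lower and Grhl2 higher (median -0.63). The shares over all genes, for this and the next lists, were 0.846% lower and 0.511% higher. Grhl2, an epithelial transcription factor, read 8.78 and 8.82 in DKO PE and 9.48 and 9.23 in DKO ES, against 7.16 and 7.15 in WT PE and 9.76 and 9.25 in WT ES (difference 1.79 ± 0.30, adjusted p = 0.00492). Its 3 dimmer probe sets, which moved little in either genotype, gave -0.05, 0.15 and 0.22, and no gene of the list was higher when probe sets were averaged. Cdh1 (E-cadherin) read 7.76 and 7.53 in DKO PE and 11.77 and 11.85 in DKO ES, against 10.48 and 10.53 in WT PE and 12.22 and 12.16 in WT ES. Although its arrays were close within each group, its difference of -2.48 ± 1.04 did not pass (adjusted p = 0.482), with the spread of each gene taken from all 20 arrays of the series. Of 23 mesenchymal and matrix genes, Col6a1 and Col6a2 were higher and Fn1 (fibronectin, -1.16 ± 0.25) lower. The Fn1 call was lost in 6 of the 8 leave-one-out fits, its second probe set gave 0.53, and no gene of the list was lower when probe sets were averaged. Among 18 genes of the DNA methylation machinery only the targeted Dnmt3b passed, at -1.51 ± 0.31 (adjusted p = 0.0231). Its second probe set gave -0.59 and its call was lost in 7 of the 8 leave-one-out fits, while Dnmt3a differed by 1.08 ± 0.27 (adjusted p = 0.0742).

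Several lists held no gene that passed in either direction: 22 glucocorticoid receptor targets (median -0.08), 31 cell cycle and replication genes (-0.21), 32 Wnt pathway genes (-0.09), 11 LIF and Stat3 pathway genes (0.08), 19 p53 and stress genes (-0.27) and 14 nascent mesoderm genes (-0.12). With 0.511% higher and 0.846% lower over all genes, no call in lists of this size says little about them. Dex also acts on the cells' own glucocorticoid receptor, and its part was not tested. Of the 22 targets, 14 had a difference below 0 and 8 above. Sgk1 (-1.25 ± 0.32, adjusted p = 0.0783) and Mt2 (-1.69 ± 0.455, 0.108) fell in DKO, did not pass in WT, and were lower in DKO PE than in WT PE. Markers of other lineages gave 1 lower gene each among 18 trophoblast (Tfap2a, -1.17), 19 neuroectoderm (Otx2) and 20 definitive and gut endoderm genes (Cpm), and 0 higher ones. Leaving out single arrays ended the call in all 8 fits for Tfap2a, in 6 for Cpm and in 4 for Otx2, and no trophoblast gene was lower when probe sets were averaged.

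**Figure D5:**
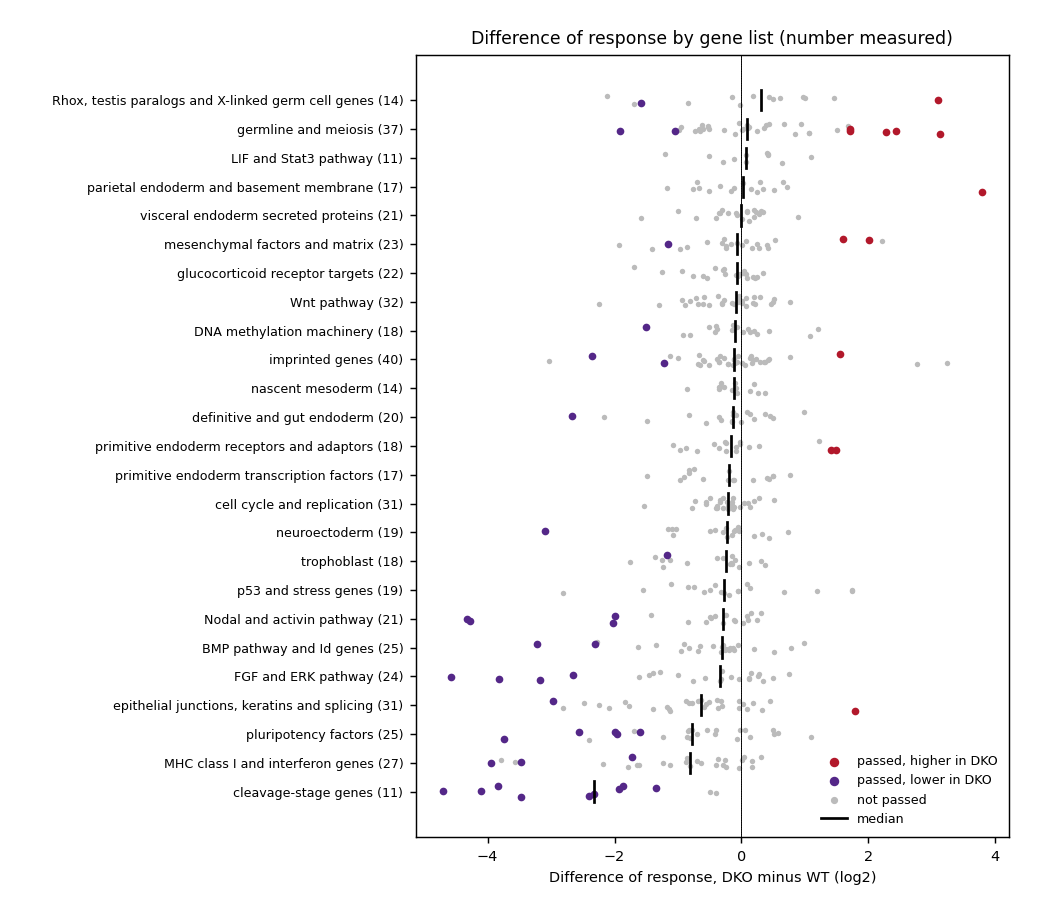
Difference of response, DKO minus WT (horizontal axis, log2), for every measured member of 25 gene lists, with the number measured in brackets and the list median as a black bar. Red and violet dots passed as higher and lower in DKO. Of all genes, 0.511% passed as higher and 0.846% as lower. The lists were chosen with earlier results of these data known. Of 11 cleavage-stage genes, 9 passed on the lower side (median -2.32), and none of the 17 primitive endoderm transcription factors passed.

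The same difference was formed in mesoderm, from 8 other arrays, as the response of Flk1+/PDGFRa+ mesoderm cells of both genotypes cultured for 4 days with Dex or without it. There 496 genes (2.73%) had a higher and 570 (3.13%) a lower response in DKO. Of the 93 genes higher in the ES comparison, 16 (17.2%) were also higher in mesoderm and 3 (3.23%) were lower, and of the 154 lower genes 29 (18.8%) were also lower and 5 (3.25%) were higher. Car8 differed by 2.62 in the ES comparison and by 5.27 ± 0.34 in mesoderm, Aqp8 by 1.49 and 5.30 ± 0.31, and Ptger3 by 3.31 and 2.75 ± 0.37. Fgf5 differed by -4.57 and -5.91 ± 0.71, and Ifitm1 by -3.94 and -1.71. Dazl (3.12 and -1.42) did not pass in mesoderm, and Tcim (3.21 and -3.15), Lgals9 (2.71 and -1.03) and D1Pas1 (3.83 and -1.60) passed there in the opposite direction. None of the 9 cleavage-stage genes passed in mesoderm.

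By position, 10 of the 93 higher genes (10.8%) and 16 of the 154 lower genes (10.4%) lay on the X chromosome, which held 617 of the 18033 placed genes (3.42%). Promoter windows were available for 68 higher and 120 lower genes. The median number of CpG dinucleotides was 11.5 in the higher and 13 in the lower genes, and 17.0 over all 14453. For the 15 windows of genes that fell in WT and did not pass in DKO it was 15, for the 35 that rose in DKO and did not pass in WT 9.0, and for the 55 that fell in DKO and did not pass in WT 9.0. The GATA motif (AGATAA or TGATAA on either strand) occurred in 9 of 68 higher windows (13.2%), in 12 of 120 lower windows (10.0%) and in 12.8% of all windows. Of the sequences printed above none contained it.

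The scan day of the arrays was known from the array files: all ES arrays were scanned on 1 day, and the PE arrays on 2 others, each with 1 DKO and 1 WT array. PE and ES cells are therefore confounded with the day, in the same way for both genotypes. The same holds for the chip lot: all PE arrays were of 1 lot, and the ES arrays were of 2 other lots, each with 1 DKO and 1 WT array. Formed within each PE scan day, the difference was at least 2-fold in 89 and 92 of the 93 genes and in 149 and 152 of the 154. These values come from the arrays on which the genes were called, so their direction was fixed by the calls, and they share the ES arrays. The part of the scan day and of the chip lot in the PE responses was not tested. Leaving out single arrays changed the calls more: 42 of the 93 and 67 of the 154 genes passed without any 1 of the 8 arrays. For the 106 called genes with several probe sets, 48 of 61 other probe sets of higher genes (78.7%) and 88 of 106 of lower genes (83.0%) had the same sign, and 18 and 28 of them differed by at least 2-fold.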

How the data were processed

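RNA of 20 cultures (10 groups of 2) was measured on Affymetrix MOE430 version 2 arrays. The authors deposited log2 expression values for 45101 probe sets, which their notes describe as RMA output, and the values ran from 2.68 to 15.3, with array medians of 5.79 to 5.87. Whether all arrays were normalized in 1 run is not given in the sources used here. The array files, deposited per sample, also hold other settings, of which only scan day and chip lot were used. The number of arrays limits the precision, and p-values measure only the spread between the 2 arrays of each group.

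Of the probe sets, 34958 had 1 gene symbol in the platform annotation, 932 had several and 9211 none. Each of 18194 genes was read from its brightest probe set (mean of the 20 arrays). All 10 groups entered 1 linear model, fitted with limma 3.58.1 in R 4.3.3 (10 residual degrees of freedom, empirical Bayes). The paper states that 1 Flk1+ population of each genotype lacked Gata4GR, so the 2 Flk1+ arrays of a genotype differed in the transgene. In these pairs 880 (WT) and 698 (DKO) genes lay at least 2-fold apart, against 20 to 107 in the ES and PE groups. That gap enters the SE and p-value of every gene. P-values were adjusted by the Benjamini-Hochberg method over all genes, and a gene passed at an adjusted p under 0.05 with at least a 2-fold size. An exact permutation test of 2 arrays against 2 cannot reach p under 0.05, so none was run.

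The named genes were the 15 largest differences in each direction with responses that do not overlap, and members of 25 lists (532 measured genes, up to 8 passing and 4 not passing per list). Sox17, Gata6, Sox7, Foxa2, Lama1, Esrrb, Tfcp2l1, Dusp6, Spry4, Amot, Tfec and Slc44a3 were added after their values were seen. The members and lists were chosen with earlier results of these data known. Alternatives covered the arrays fitted, blocks for replicate number, scan day and chip lot, scaling, low genes, the choice of probe set, the test and each array left out. The SAM test of the study's methods was not run.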

Additional observations from a re-analysis of the deposited data

Results flagged for a closer look

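The difference of response was itself the tested interaction of genotype and Dex, so both of its counts are listed here: 93 genes responded more positively in DKO than in WT and 154 more negatively, over 2 arrays per group (limma, Benjamini-Hochberg adjusted p under 0.05 and at least 2-fold). At an unadjusted limma p under 0.05, without a fold limit, there were 1575 of 18194 genes. A share of 0.05 of all genes would on average reach such a p if no gene differed. The 1575 are therefore not a count of genes that differ.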

How the results depend on the processing

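All named genes that passed kept the sign of their difference under every alternative run except Ly6e, which gave 0.25 when probe sets with _x_ or _s_ names were left out and another probe set stood for it. For most alternatives the sign could not change. The fit of 8 arrays, the blocks, the tests and the omission of low genes left the estimate itself as it was. Responses that do not overlap keep their sign when arrays are left out. Only the scalings and the choice of probe set could change a sign. The counts of 93 higher and 154 lower genes stayed within 1.5 times under both scalings, the mean of all probe sets, the omission of _x_ and _s_ probe sets, the trended robust fit and the scan day and chip lot blocks. They were 178 and 347 with the 8 ES and PE arrays alone (92 and 152 shared with the 20-array fit), 166 and 292 at an unadjusted p under 0.01, and 10 and 16 when a difference beyond 2-fold was itself tested (treat). With the lowest 40% of genes left out, which removes called genes of low mean signal, they were 52 and 76. Without single arrays the counts were 51 to 79 higher and 77 to 125 lower, lowest without WT PE replicate 2 (51 higher) and DKO PE replicate 2 (77 lower). Other arrays that moved a count by over 1.5 times were WT ES replicate 2 (57 and 89), DKO ES replicate 1 (57 higher), DKO ES replicate 2 (102 lower), WT PE replicate 1 (57 and 80) and DKO PE replicate 1 (60 and 96). In an alternative chosen after seeing the data, without both PE arrays of 1 scan day, they were 34 and 57 (day 2) and 28 and 40 (day 3), fits with fewer arrays; the cause of the other shifts was not tested. The labels give replicate numbers, but same-numbered arrays deviated together unevenly (correlations of 0.012 to 0.36 between groups, across genes), so the number was not taken as a pairing. With a replicate block the counts were 94 and 162. Signals near the low end of the scale limit the shares left in DKO PE.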
